A study of Hypsibius dujardini with 126 samples.

Results

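A set of 185 transcripts of the tardigrade Hypsibius dujardini was counted at a low level in the first hours of embryonic development, rose to a transient peak at 60-79 h and was low again by 90-99 h. RNA had been measured in 126 single whole embryos by CEL-Seq. In this method RNA with a poly(A) tail is primed at its 3' end, each sample receives its own barcode, and the pooled material is amplified by in vitro transcription before sequencing. The embryos were collected from the 1-cell stage to 99 h, at intervals of about 1 h, and some label times are held by more than 1 embryo. No embryo carried a treatment or a named genetic change. All were kept at 20 °C from the 2-cell stage until they were frozen. The labels count time from fertilization in one place and from the 2-cell stage in another, so the zero of the label time is uncertain. No label ties an embryo to a mother, so embryos of one clutch may be among them and p-values reflect only how these single embryos varied.

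The 185 members were selected on their own counts, out of 12746 transcript models. Counts were scaled to CPM (counts per 1000000 transcript counts of the embryo) in the 101 embryos with at least 63405 counts, which is 10% of the median total, and were averaged in windows of 10 h. The first window, 0-9 h, also holds the 1-cell and 2-cell embryos. A member had its highest mean at 60-69 h or at 70-79 h, with at least 50 CPM there. That mean was over 4 times the means at 0-9 h and at 90-99 h, and the 0-9 h mean was at least 1 CPM. A transcript counted in every kept embryo was to be left out, and no transcript was left out for that reason alone. The peak was at 60-69 h in 114 members and at 70-79 h in 71. All of these values describe the choice and are given without a test.

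The embryo at the start of development lives on RNA that its mother placed in the egg, and its own genome becomes active only afterwards, so a transcript counted early may be of either origin. Pulses of expression in the second part of embryogenesis are known in many animals from the time when organs form and cells differentiate. The deposited counts name transcripts by model number, and those numbers are not paired with gene names here, so no function is given to any member.

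The groups of this report are windows of label time, and from the first window to the last they hold 17, 13, 7, 9, 10, 10, 4, 9, 8 and 14 kept embryos. The total of transcript counts lay between 2347 and 4972036 over all 126 embryos, and the lowest total among those kept was 65417. Embryo numbers in the labels fall into 3 runs: the 1-cell stage to 46 h belongs to embryos 79-126, the hours 47 to 99 to embryos 26-78, and both 0 to 18 h and 80 to 98 h to embryos 1-25. The labels name no batches, and the runs are only stretches of embryo numbers. Transcript counts per spike-in count averaged 166 in the embryos 79-126 of the 0-9 h window and 9.17 in its embryos 1-25. The rise in share of counts across 46 and 47 h coincides with a change of run, and age and run cannot be told apart there. Both peak windows hold embryos 26-78 alone, whereas the 0-9 h window holds none of them.

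Several embryos of the peak windows stood apart from their neighbours. Embryo 55, at 76 h, had 752928 counts and 4.88 counts per spike-in count, within the range of 4.32 to 7.57 in the kept embryos from 71 to 78 h, but only 0.684% of its counts were from members. In 108 members it was lower than both embryo 54 and embryo 56, and in 22 members it was higher than both. In 76 members it had no count although both neighbours had counts. Embryo 58, at 79 h, had 76974 counts, of which 33.2% were from HD_v1_tr_06538, a transcript outside the set, and 0.289 counts per spike-in count. Summed values are given below with and without these 2 embryos.

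The summed share of all counts taken by the members describes the pulse for which they were selected. In RNA of whole embryos, more cells of a kind and more RNA per cell cannot be told apart, and a share is relative to all other transcripts. The share was 0.183% ± 0.037 at 0-9 h (SD, n = 17), 0.309% ± 0.122 at 10-19 h (n = 13), 0.246% ± 0.088 at 20-29 h (n = 7) and 0.296% ± 0.131 at 30-39 h (n = 9). In embryos 79-126 at 40-46 h it was 0.637% ± 0.25 (n = 7), with 0.565%, 0.903% and 1.01% at 44, 45 and 46 h. Embryos 26-78 at 47, 48 and 49 h had 2.85%, 3.16% and 3.14%. The share was 3.34% ± 0.97 at 50-59 h (n = 10).

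At 60-69 h the 4 kept embryos had 7.21%, 10.3%, 12.0% and 13.1% of their counts from members, at 62, 63, 64 and 69 h. The 9 embryos from 71 to 79 h had 12.4%, 11.2%, 13.0%, 12.5%, 10.3%, 0.684%, 6.82%, 5.84% and 1.12%. Over all 13 embryos the share averaged 8.95% ± 4.30, and without embryos 55 and 58 it averaged 10.4% ± 2.63 (n = 11). The share was 0.959% at 81 h, 0.551% ± 0.220 at 80-89 h (n = 8) and 0.381% ± 0.106 at 90-99 h (n = 14). Every kept embryo from 62 to 78 h, apart from embryo 55, was above every kept embryo outside the peak windows. The members were chosen in these same embryos for high means at 60-79 h, so a higher share there follows from the choice.

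**Figure D1:**
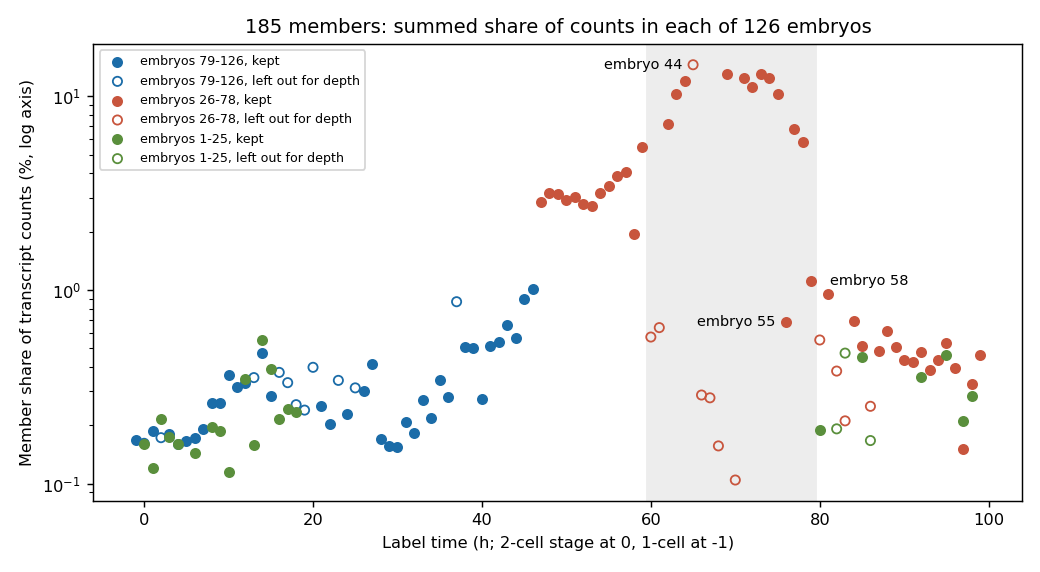
Share of transcript counts from the 185 members in each of 126 embryos (percent, log axis) against label time in h. Filled points are kept embryos and open points are embryos left out for depth, colours mark the runs of embryo numbers, and the grey band marks 60-79 h. Kept embryos in the band reach 13.1%, embryo 44 lies at 14.6% and embryo 55 at 0.684%.

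The 7 embryos of 60-79 h below the depth minimum were not used by the selection. Embryo 44, at 65 h, had 2649 counts, of which 386 were from members, a share of 14.6% (95% Wilson interval 13.3% to 16.0%). Its share of HD_v1_tr_06538 was 1.55%, and it had 5.40 counts per spike-in count. The other 6, embryos 39, 40, 45, 46, 47 and 49, had member shares from 0.104% to 0.639%, and their pooled share was 0.319%, or 486 of 152349 counts. These 6 had 65.5% to 72.5% of their counts on HD_v1_tr_06538 and 0.146 to 0.233 counts per spike-in count. As a share of all counts, embryo 44 was therefore as high as the kept embryos of its age. On that scale the other 6 were no higher than embryos at 40-46 h. Their totals include HD_v1_tr_06538, so their member shares among all other transcripts were higher than the values given here. The comparison with 40-46 h is limited to shares of all counts. How far HD_v1_tr_06538 and the low spike-in ratio account for the low shares was not tested.

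Embryo 44 had counts on 13 members and on 223 transcripts in all. Members with the peak at 60-69 h gave 13.6% of its counts and those with the peak at 70-79 h gave 1.02%. The highest were HD_v1_tr_03565 with 86 counts and HD_v1_tr_00472 with 76 counts, or 3.25% and 2.87% of its counts. They took 0.0306% and 0.245% in embryo 43, and 0.0718% and 0.0793% in embryo 48. HD_v1_tr_00621, the most abundant member at 60-69 h, had 0 counts in embryo 44, where 3 counts would be 1133 CPM, although it had 31253 CPM in embryo 43 at 64 h and 49927 CPM in embryo 48 at 69 h. The 10 members with the highest peak means gave 45.1% of the member counts in embryo 44, against 66.4% in embryo 43 and 60.0% in embryo 48. Its summed share was thus like that of its neighbours, while the leading transcript was not counted. The 2 highest members there were far above their level in both neighbours. The counts hold no molecular identifiers, so 2 reads may be copies of 1 molecule, and the interval and the floor account for counting error alone.

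The left-out embryos were also compared gene by gene, with edgeR's quasi-likelihood test. At their depth only 181 transcripts passed the filter on low counts, and 1 of them was a member, HD_v1_tr_12231. Between the 7 left-out embryos at 60-79 h and the 7 at 80-89 h, 0.552% of the 181 transcripts were higher and 64.1% lower at 60-79 h. Against the 11 left-out embryos at 0-39 h, 7.73% of the 181 were higher and 79.0% lower at 60-79 h. HD_v1_tr_12231 had a log2 change of 1.99 against 80-89 h (adjusted p = 0.1395) and of 0.77 against 0-39 h (adjusted p = 0.4842) in edgeR's test, and so passed in neither. With DESeq2, 0 members passed against 80-89 h, where 1.66% of the 181 were higher and 25.4% lower, and 1 was higher against 0-39 h, where 12.7% were higher and 32.0% lower. At an unadjusted p under 0.05 edgeR gave 0 members in both. The comparison tests 1 member and says nothing of the other 184.

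The peak level spread widely over the members. The median of the 185 peak means was 186 CPM, with a range of 50.3 to 29275 CPM. A mean of at least 100 CPM was reached by 140 members and of at least 1000 CPM by 27. The 10 members with the highest peak means held 60.4% of all member CPM at 60-69 h and 47.9% at 70-79 h. In 43 members a single embryo gave over 50% of the summed CPM of the peak window, and 27 of these had their peak at 60-69 h, where only 4 embryos were kept.

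Detection in the peak windows was uneven. All 13 kept embryos at 60-79 h had counts in 10 members, at least 10 of 13 had counts in 94 members, and fewer than 7 of 13 in 32 members. Of the 114 members with the peak at 60-69 h, 89 had counts in every kept embryo of that window. Of the 71 with the peak at 70-79 h, 10 did, in a window that includes embryos 55 and 58.

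HD_v1_tr_00621 had the highest peak mean. At 60-69 h it had 11138, 24781, 31253 and 49927 CPM at 62, 63, 64 and 69 h, a mean of 29275 ± 16120 CPM (SD, n = 4). At 70-79 h it had 31827 CPM at 71 h, 14407 CPM at 72 h and 562 CPM at 73 h, and at most 455 CPM in the later embryos of that window. At 0-9 h it had counts in 3 of 17 embryos, with a mean of 1.06 CPM, and at 90-99 h the mean was 2.15 CPM. Embryo 81, with 65417 counts, had 1 of the early counts, or 15.3 CPM, and without it the 0-9 h mean is 0.167 CPM, under the minimum of the selection. The transcript climbed through every kept embryo from 62 to 69 h and was lost within a few hours of label time after 71 h. Its ascent had begun earlier, with 26.2 CPM at 47 h, 694 CPM at 49 h, 7095 CPM at 57 h and 12962 CPM at 59 h.

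HD_v1_tr_05823 had the highest peak mean among members with the peak at 70-79 h, at 14062 ± 15326 CPM (SD, n = 9). From 71 to 79 h its values were 9552, 17410, 34326, 40786, 20226, 5.31, 3639, 19.7 and 598 CPM. At 60-69 h it had 3.09, 10.8, 2.53 and 2609 CPM at 62, 63, 64 and 69 h. It was thus near its early level until 64 h, high from 69 to 75 h and low in embryos 55 and 57. At 0-9 h it had counts in 13 of 17 embryos, with a mean of 5.39 CPM.

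**Figure D2:**
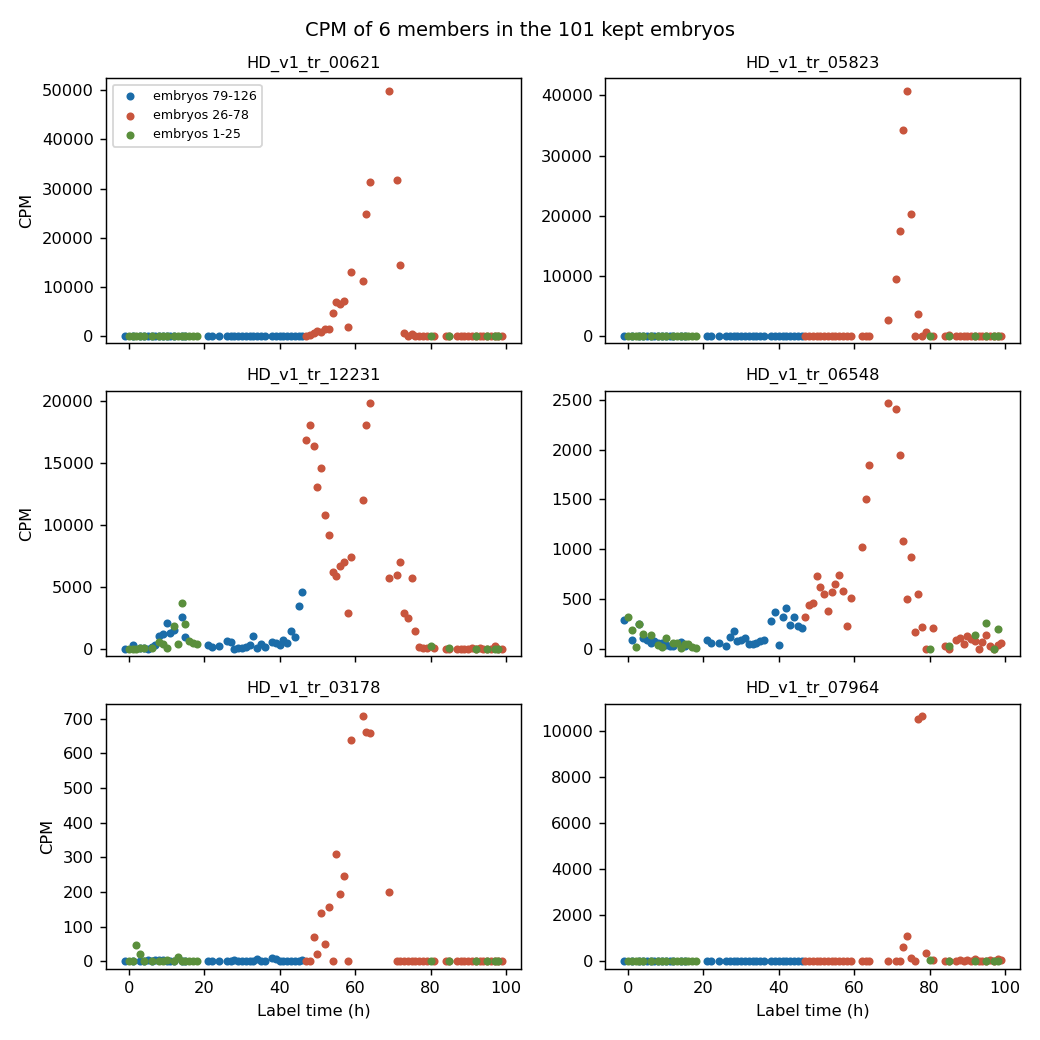
CPM of 6 members against label time in h, 1 panel each with its own linear axis, in the 101 kept embryos, coloured by run of embryo numbers. HD_v1_tr_00621 reaches 49927 CPM at 69 h, HD_v1_tr_05823 reaches 40786 CPM at 74 h and HD_v1_tr_07964 reaches 10637 CPM at 78 h, while HD_v1_tr_12231 has an earlier maximum of 18081 CPM at 48 h.

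The early level was low for most members. The 0-9 h means had a median of 2.99 CPM, and 68 members were under 2 CPM, 120 under 5 CPM and 180 under 50 CPM. A member had counts in a median of 9 of the 17 embryos at 0-9 h, and 21 members had counts in all 17. Every member had counts in at least 2 embryos at 0-9 h. In 57 members the 0-9 h mean is under 1 CPM without the highest embryo of that window. Their passing of that minimum, not their early detection, rests on 1 embryo. Without embryo 81 alone, 3 members are under it. Over the 185 members Spearman's rho between the 0-9 h mean and the peak mean was -0.11, with both means scaled to the same totals and both used in the selection. The median ratio of the peak mean to the 0-9 h mean was 48.5, and the median 0-9 h mean was 2.06% of the peak mean.

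Both members with the highest early level were counted in all 17 embryos at 0-9 h. HD_v1_tr_12231 averaged 244 ± 358 CPM at 0-9 h, with 0.548 CPM in the lowest embryo, 67.3 CPM at the median and 1166 CPM in the highest. It averaged 1372 ± 1046 CPM at 10-19 h (n = 13), 273 ± 230 CPM at 20-29 h (n = 7) and 340 ± 316 CPM at 30-39 h (n = 9). It had therefore a first, smaller maximum at 10-19 h, present in embryos 79-126 (1678 ± 638 CPM, n = 5) and in embryos 1-25 (1181 ± 1238 CPM, n = 8). It averaged 1706 ± 1646 CPM in embryos 79-126 at 40-46 h (n = 7), and it had 16797, 18081 and 16383 CPM in embryos 26-78 at 47, 48 and 49 h.

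From there HD_v1_tr_12231 declined to 5848 CPM at 55 h, and the lowest embryo of 50-59 h, after 56 h, had 2894 CPM. The transcript reached 11988, 18060, 19787 and 5741 CPM at 62, 63, 64 and 69 h. It was at 5691 CPM at 75 h and at 114 CPM at 77 h, and averaged 29.5 CPM at 90-99 h. It held 37.9% of all member CPM at 47-56 h. The highest level at 60-69 h was thus close to an earlier level at 48 h. Its transient at 60-79 h was a second maximum within embryos 26-78.

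HD_v1_tr_06548 averaged 129 ± 96.1 CPM at 0-9 h, between 18.7 and 316 CPM. It averaged 40.9 ± 28.9 CPM at 10-19 h (n = 13), 252 ± 119 CPM in embryos 79-126 at 40-46 h (n = 7) and 408 ± 77.4 CPM in embryos 26-78 at 47-49 h (n = 3). At 62, 63, 64 and 69 h it had 1021, 1501, 1851 and 2466 CPM. At 71, 72 and 73 h it had 2413, 1948 and 1087 CPM, and the mean at 90-99 h was 86.9 CPM. Its highest values thus stood at 69 and 71 h, on both sides of the boundary between the peak windows.

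Between the runs of embryo numbers the early level could be compared at like ages. At 0-9 h, 172 of 185 members had counts in both runs, 10 had no count in embryos 1-25 and 3 had none in embryos 79-126. A mean of at least 1 CPM was reached in both runs by 117 members. The median member mean was 2.39 CPM in embryos 79-126 (n = 9) and 3.36 CPM in embryos 1-25 (n = 8), and Spearman's rho between both sets of means was 0.58 over the 185 members. The summed share was 0.194% ± 0.039 in embryos 79-126 and 0.17% ± 0.031 in embryos 1-25.

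In edgeR's quasi-likelihood test of embryos 79-126 against embryos 1-25 at 0-9 h, 6 members were higher and 0 lower of 185 tested. At an unadjusted p under 0.05 edgeR gave 16 higher and 24 lower, and both DESeq2 and RLE factors gave 7 higher and 0 lower. Over all 12285 transcripts tested, 0.70% were higher and 0.985% lower, but 1.63% higher and 0.781% lower with DESeq2 and 1.33% higher and 0.667% lower with RLE factors. All 6 members had no count in embryos 1-25, although these were sequenced more deeply, with 6028404 counts over the 9 embryos 79-126 against 25070349 over the 8 embryos 1-25. Even so, 101 members on average had counts in an embryo of 1-25 and 111 in an embryo of 79-126. The selection requires a pooled mean of at least 1 CPM, so a member at 0 in embryos 1-25 had to be above that in embryos 79-126, and the 6 are a description. The median log2 change was -0.35 over members and -0.11 over all transcripts, and -0.37 and -0.20 with transcripts at 0 in 1 run set at their bound. That bound takes 3 counts over the group as the floor. The sign of these medians depends on the scaling: they were 0.05 over members and 0.28 over all transcripts with DESeq2, and 0.02 and 0.17 with RLE factors.

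HD_v1_tr_09977 averaged 3.73 ± 4.89 CPM in embryos 79-126 and was at 0 in all 8 embryos 1-25. It had 2.90, 3.23, 14.7, 7.16 and 5.67 CPM at 5, 6, 7, 8 and 9 h and no count in the 4 younger embryos. Its pooled level was at least 36.0-fold higher in embryos 79-126. HD_v1_tr_12394 had counts in 6 of 9 embryos 79-126, up to 7.16 CPM, and in 0 of 8 embryos 1-25, or 25.0-fold against the same floor. Both were thus counted at 0-9 h in embryos 79-126 and not in embryos 1-25.

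**Figure D3:**
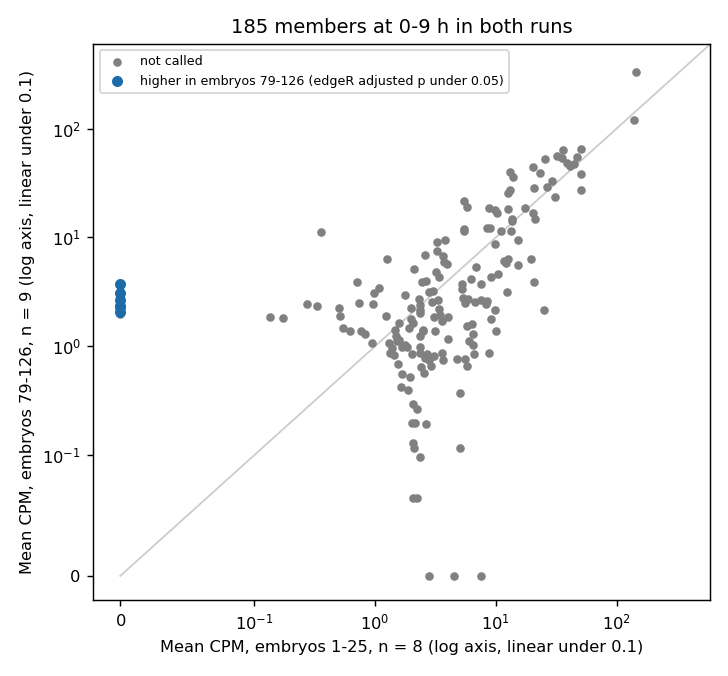
Mean CPM of each of the 185 members at 0-9 h in embryos 79-126 (n = 9, vertical axis) against embryos 1-25 (n = 8, horizontal axis), both on log axes that are linear under 0.1 CPM. The line marks equal values, blue points are the 6 members called higher in embryos 79-126, all at 0 in embryos 1-25, and 3 members lie at 0 in embryos 79-126.

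The climb towards the peak was spread over members in time. A window mean of at least 25% of the peak mean was reached by 13, 18, 22, 46 and 93 members in the windows from 10-19 h to 50-59 h. It was reached by 147 members at 60-69 h, by 132 at 70-79 h, by 23 at 80-89 h and by 0 at 90-99 h, where the selection allows none. At 50-59 h, members with the peak at 60-69 h had a median of 42.0% of their peak mean and those with the peak at 70-79 h a median of 7.53%. Most of the ascent of the later group therefore lay after 59 h.

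**Figure D4:**
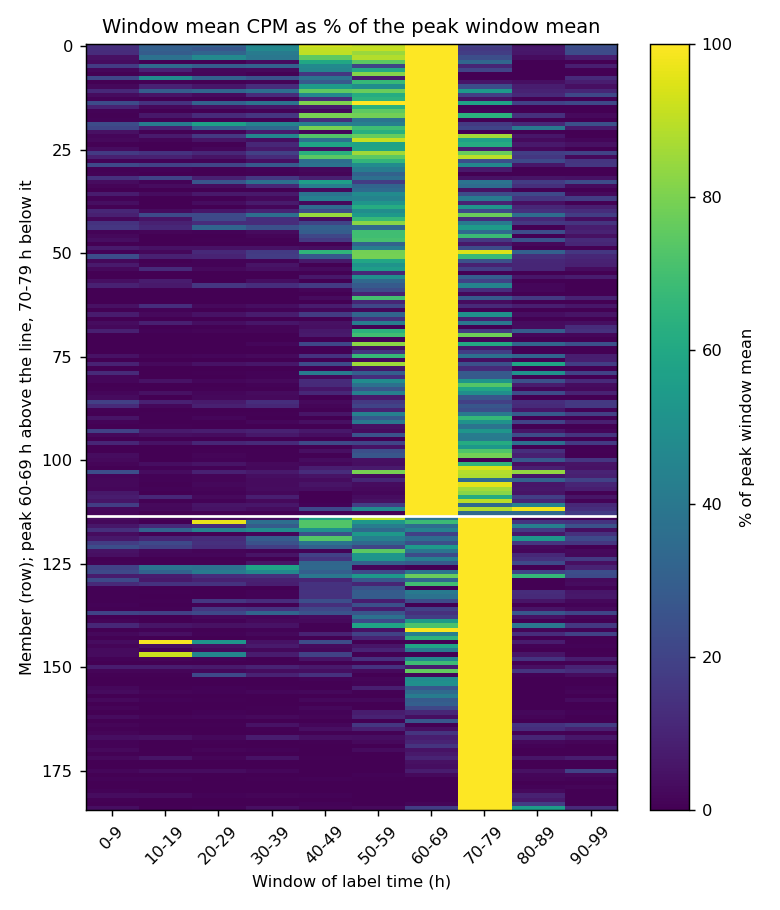
Mean CPM of each of the 185 members (rows) in each window of label time (columns, h), as a percentage of the member's peak window mean. The 114 rows above the white line have the peak at 60-69 h and the 71 below it at 70-79 h, and a few rows below the line are also bright at 10-19 h or 20-29 h.

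A few members were almost as high in an earlier window as in the peak window, and these were chosen after their values were seen. HD_v1_tr_03917 averaged 107 ± 92.3 CPM at 10-19 h, where 12 of 13 embryos had counts, and HD_v1_tr_10960 averaged 107 ± 90.8 CPM there, also in 12 of 13. Their peak means at 70-79 h were 108 ± 293 CPM and 116 ± 308 CPM (n = 9). Embryo 57, at 78 h, gave 91.0% and 89.3% of these peak windows. HD_v1_tr_03724 averaged 78.2 ± 82.6 CPM at 20-29 h (n = 7) and 81.1 ± 152 CPM at 70-79 h (n = 9), of which embryo 58 gave 65.9%. In these 3 members the higher mean at 70-79 h rests on a single embryo.

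Within embryos 79-126, where the run does not change, embryos at 40-46 h were compared with embryos at 20-29 h by edgeR's quasi-likelihood test. Of the 185 members, 70 passed the filter on low counts, 20 of them higher and 3 lower at 40-46 h. Over the 7474 transcripts tested, 12.1% were higher and 13.3% lower. Members pass the filter through the window where they are high, and their count is not read against those shares. Without the filter all 185 members were tested, and 37 were higher (20.0%) and 12 lower (6.49%), against 12.0% higher and 9.26% lower of all 12400 transcripts. In that fit the median log2 change was 0.53 over members and 0.00 over all transcripts, and 0.56 over the 171 members with a value and 0.03 over all transcripts with those at 0 in 1 window set at their bound, again 3 counts over the group. Against 30-39 h of the same run, 9 members were higher and 7 lower of the 70 that passed the filter, where 8.60% of all transcripts were higher and 12.4% lower. The peak windows took no part in this comparison, while the selection bounds both windows from above by the peak mean.

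HD_v1_tr_07988 had 2.18, 432, 71.3, 365, 301, 381 and 426 CPM at 40 to 46 h, against 0 to 6.45 CPM in the 7 embryos at 20-29 h. The embryo at 40 h lay within the range of 20-29 h and the other 6 lay above it (edgeR log2 change 6.00, SE 1.06, adjusted p = 0.0001059). It had risen within the same run by 38 and 39 h, with 189 and 324 CPM. HD_v1_tr_10687 had 0, 50.7, 44.6, 91.9, 32.9, 104 and 89.9 CPM at 40 to 46 h, against at most 1.65 CPM at 20-29 h (edgeR log2 change 6.61, SE 1.08, adjusted p = 5.131e-05). Its 6 embryos from 41 to 46 h all lay above that maximum. Both were already far above their early level before the change of run. HD_v1_tr_10687 stayed near that level at 50-59 h (53.7 ± 39.9 CPM, n = 10).

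Of the 3 members lower at 40-46 h, HD_v1_tr_05810 and HD_v1_tr_06796 had the largest fitted changes. HD_v1_tr_05810 had counts in 1 of 7 embryos at 40-46 h (2.18 CPM), against 7 of 7 at 20-29 h with 1.61 to 31.1 CPM (edgeR log2 change -4.26, SE 0.93, adjusted p = 0.0009015). HD_v1_tr_06796 had counts in 1 of 7 embryos at 40-46 h (2.53 CPM), against 6 of 7 at 20-29 h with up to 32.1 CPM (edgeR log2 change -3.53, SE 1.24, adjusted p = 0.03261). This holds for embryos 79-126 at 40-46 h. In embryos 26-78, HD_v1_tr_05810 averaged 21.2 ± 19.9 CPM at 47-49 h (n = 3) and 3.50 ± 8.68 CPM at 50-59 h (n = 10). HD_v1_tr_06796 averaged 43.2 ± 52.0 CPM at 47-49 h and 84.1 ± 109 CPM at 50-59 h.

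Across the change of run the step in share of counts was large. Between the embryos at 47-49 h and those at 44-46 h, 111 members had a higher mean and 62 a lower one, with a median ratio of 2.70 over the 121 members counted in both. Without HD_v1_tr_12231 the summed share averaged 1.34% at 47-49 h and 0.528% at 44-46 h. Per spike-in count the step was reversed, with member counts averaging 1.35 at 44-46 h and 0.176 at 47-49 h. On that scale embryos 79-126 at 40-46 h averaged 1.03, above the 0.495 of the kept embryos at 60-79 h. Within embryos 26-78 the average rose from 0.176 at 47-49 h to 0.495 at 60-79 h, and was 0.0273 at 80-99 h. Age and run cannot be told apart in these values.

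The peak itself had 2 successive parts. From 62 to 64 h, members with the peak at 60-69 h took 6.78%, 9.64% and 11.1% of the counts, against 0.429%, 0.643% and 0.851% for those with the peak at 70-79 h. At 69 h they took 9.77% and 3.31%, and at 71 h 6.45% and 5.96%. At 72, 73 and 74 h the earlier group had 4.26%, 2.1% and 1.67%, while the later group had 6.95%, 10.9% and 10.8%. At 75, 77 and 78 h the earlier group had 2.3%, 0.984% and 0.786% and the later group 7.97%, 5.83% and 5.05%. The summed shares crossed between 71 and 72 h, so the joint plateau from 63 to 75 h was made of different transcripts at its start and at its end. The windows that define both groups also set this order in the means.

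**Figure D5:**
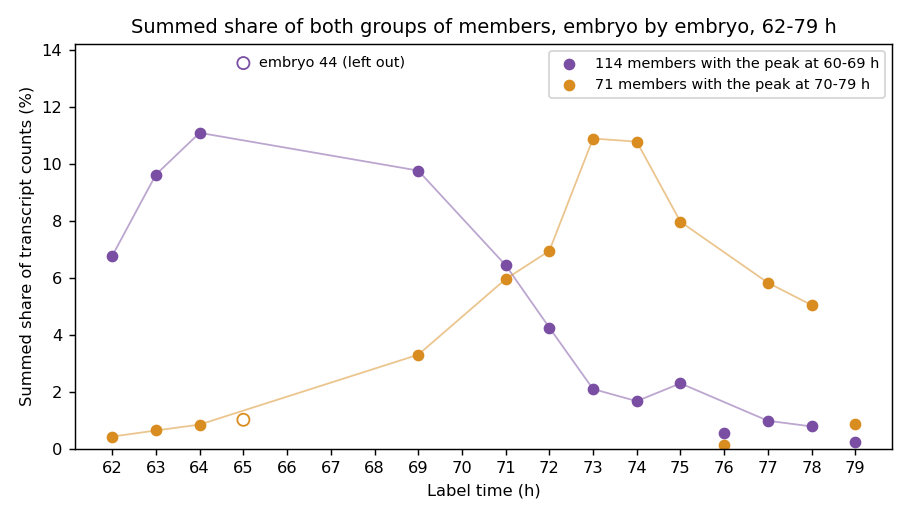
Summed share of transcript counts (percent) of members with the peak at 60-69 h and of members with the peak at 70-79 h, embryo by embryo, against label time in h. Lines join the kept embryos without those at 76 h (embryo 55) and 79 h (embryo 58), and open points are embryo 44 at 65 h, with 13.6% and 1.02%.

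When edgeR's quasi-likelihood test compared the 9 kept embryos at 70-79 h with the 4 at 60-69 h, 19 of 184 members tested were higher (10.3%) and 25 lower (13.6%) at 70-79 h. Over all 11802 transcripts tested, 8.32% were higher and 3.63% lower. Both window means entered the selection, so nothing is read from the members' counts against these shares. The median log2 change was -0.67 over members and 0.03 over all transcripts, and -0.67 and 0.18 with transcripts at 0 in 1 window set at their bound. In 16 of the 44 members called, 1 of both windows had no count at all. The count and its balance depend on the fit. Within embryos 26-78 alone, 4 members were higher and 13 lower, where 1.06% of all transcripts were higher and 1.05% lower. Without embryo 43, at 64 h, 9 were higher and 20 lower, where 3.49% were higher and 2.85% lower. Without embryo 55, 21 were higher and 24 lower, where 8.33% were higher and 4.76% lower. With DESeq2 17 were higher and 15 lower, where 6.76% were higher and 1.75% lower. With no embryo left out for depth 23 were higher and 18 lower of 168 tested, where 12.2% were higher and 3.47% lower, and the median log2 change was 0.03 over members and 0.50 over all transcripts. Members that moved between both windows are therefore described below by their values, without a test.

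The 19 members higher at 70-79 h together took 1.44% to 6.57% of counts at 71-75 h and 2.76% to 3.77% at 77-78 h, against 0.00493% to 0.0114% at 62-64 h and 0.373% at 69 h. The 25 members lower at 70-79 h took 0.00392% to 0.254% at 71-75 h and 0.00683% to 0.0246% at 77-78 h, against 1.67% to 3.24% at 62-64 h and 0.944% at 69 h. Both lists were called by this same contrast in these same kept embryos, so their differences there follow from the choice. In embryo 44, which entered neither the selection nor this test, the 19 had 0 counts, against a floor of 3 counts or 0.113%, and the 25 took 4.49%. Its composition at 65 h was thus on the side of 62-64 h for both lists.

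HD_v1_tr_07964 had 0, 0, 620, 1111, 134, 30.6, 10527, 10637 and 364 CPM from 71 to 79 h, against 0 in all 4 embryos at 60-69 h. Its pooled level was at least 5346-fold higher at 70-79 h, against a floor of 3 counts over the group, which accounts for counting error alone. Between 60 and 79 h the transcript was thus first counted at 73 h, and it was highest in the embryos at 77 and 78 h, later than HD_v1_tr_05823.

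HD_v1_tr_00676 had counts in 6 of 9 embryos at 70-79 h and in 0 of 4 at 60-69 h, at least 1079-fold higher in pooled level. Embryo 57, at 78 h, had 7086 CPM and embryo 58 had 533 CPM, and the other 7 had at most 107 CPM. The mean of 868 CPM was 90.4 CPM without embryo 57, and the bound was then 67.6-fold, from a pooled level of 58.7 CPM.

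HD_v1_tr_03178 was at 0 in all 9 embryos at 70-79 h, against 708, 662, 660 and 199 CPM at 62, 63, 64 and 69 h. The pooled level was at least 1646-fold lower at 70-79 h. It was already at 638 CPM at 59 h. HD_v1_tr_11294 had no count in the 9 embryos at 70-79 h and none at 69 h, against 883, 516 and 175 CPM at 62, 63 and 64 h, and was at least 1343-fold lower in pooled level at 70-79 h. Both disappeared from the counts within the peak windows, HD_v1_tr_11294 before 69 h and HD_v1_tr_03178 before 71 h.

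The pulse ended quickly for the set as a whole, with a summed share of 5.84% at 78 h and 0.959% at 81 h. At 80-89 h, 23 members kept at least 25% of their peak mean, and 33 were at 0 in all 8 embryos. At 90-99 h, 29 members were at 0 in all 14 embryos. The 90-99 h mean was above the 0-9 h mean in 100 members and below it in 85. Both members with over 300 CPM at 90-99 h, chosen after their values were seen, were HD_v1_tr_07874 with 662 CPM and HD_v1_tr_11164 with 304 CPM. Their 60-69 h means were 3478 and 3578 CPM.

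At 90-99 h the runs of embryo numbers could be compared again. The summed share was 0.403% ± 0.104 in embryos 26-78 (n = 10) and 0.327% ± 0.106 in embryos 1-25 (n = 4). In edgeR's quasi-likelihood test, 4 of 185 members were higher and 6 lower in embryos 26-78, against 1.62% higher and 6.48% lower of all 12285 transcripts. All 10 had no count in 1 of both runs. With DESeq2, 14 were higher and 3 lower, where 3.58% of all transcripts were higher and 3.13% lower. The median log2 change was 0.24 over members and 0.00 over all transcripts, and 0.37 and -0.10 with transcripts at 0 in 1 run set at their bound. Without embryo 23 there were 1 higher and 3 lower, where 0.766% were higher and 5.22% lower, and without embryo 25 there were 0 higher and 5 lower, where 0.619% were higher and 5.13% lower.

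HD_v1_tr_06577 had no count in the 10 embryos 26-78 and counts in 1 of 4 embryos 1-25, embryo 23, at 65.6 CPM (edgeR log2 change -7.30, SE 1.83, adjusted p = 0.004983). HD_v1_tr_03751 had no count in embryos 26-78 and 43.7 CPM in embryo 25 alone (edgeR log2 change -7.12, SE 1.61, adjusted p = 0.001687). Each had no count left at 90-99 h without that embryo. HD_v1_tr_06011 had counts in 4 of 10 embryos 26-78, up to 141 CPM, and in 0 of 4 embryos 1-25 (edgeR log2 change 7.51, SE 2.45, adjusted p = 0.04127). HD_v1_tr_09308 had counts in 4 of 10 embryos 26-78, up to 43.2 CPM, and in 0 of 4 embryos 1-25 (edgeR log2 change 6.98, SE 2.27, adjusted p = 0.04046). The last 2 did not pass with any 1 of the 4 embryos 1-25 left out, nor with DESeq2. A late difference between runs thus rests on 1 to 4 embryos in each of these 4 members.

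The thresholds of the selection cut through a continuous range. HD_v1_tr_02106, with a peak mean of 50.3 CPM, was just inside the minimum, and HD_v1_tr_12160, with 49.7 CPM, just outside. For the ratio to the 0-9 h mean, HD_v1_tr_06796 was inside at 4.13 and HD_v1_tr_07513 outside at 3.89. For the ratio to the 90-99 h mean, HD_v1_tr_01733 was inside at 4.01 and HD_v1_tr_06294 outside at 3.98. For the 0-9 h minimum, HD_v1_tr_12147 was inside at 1.00 CPM and HD_v1_tr_10986 outside at 0.963 CPM. Another 349 transcripts failed only that early minimum, more than the 88, 68 and 120 that failed only the peak minimum, the ratio to 0-9 h and the ratio to 90-99 h. The early presence that sets the members apart from those 349 transcripts rests on a mean of 1 CPM.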

How the data were processed

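Counts per transcript model were deposited by the authors as raw whole numbers, not normalized. The submitters' processing notes name HTSeq 0.5.4p3, CASAVA 1.8 and Bowtie2 2.1.0. The build of the genome was not given in the sources used here, nor was the annotation. Of the deposited rows, 12746 transcript models were used, while the rows of 92 spike-ins and 5 summary lines entered neither totals nor tests. Reads outside any model took a median of 6.64% of reads per embryo and unaligned reads 47.8%. Embryos under 10% of the median total of 634044 counts (25 of 126) were left out, and a single transcript can shift CPM in shallow embryos.

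The members and lists were chosen with earlier results of these data known. Tests used edgeR 4.0.16 in R 4.3.3 (TMM, default filter on low counts, quasi-likelihood F-test) on all transcripts, with Benjamini-Hochberg adjustment and a threshold of 0.05. The fit by window used all kept embryos, the run comparisons a fit by window and run, and the left-out embryos a fit of their own. The last tested 1 member. Only some of the tests were checked on simulated counts, and those of left-out embryos and between runs were not. For 70-79 h against 60-69 h, no recovery of changes was required at the spread between embryos fitted here. The check therefore does not show how many changes that test misses. Alternatives were RLE factors, DESeq2 1.42.0, no filter, other depth minimums, other thresholds, single runs and leaving out embryos. Leaving out embryo 44, embryo 55 or embryo 81 was added after seeing the data. Named IDs are the 2 highest at 0-9 h, the 2 highest at the peak, the 2 largest rises and falls among members called in each contrast, and those beside each threshold. Other values and figures were made in Python 3.11.15 with scipy 1.17.1, pandas 2.3.3, matplotlib 3.10.9 and numpy 2.4.6. No list of pathway genes or markers was applied, since IDs are not paired with names here.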

Additional observations from a re-analysis of the deposited data

Results flagged for a closer look

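Groups of 4 to 10 embryos, 35 in all, were searched for a single embryo far from the others of its window. They included groups of the 4 members named for their highest early or peak level. All 7 embryos found belong to these members. The rule flags about 1 in 20 only where values are normally distributed. CPM with many zeros are not, so the 7 are not set against that rate. Label time differs within a window, so a steep course alone places a first or last embryo apart, and the part this has was not tested.

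For HD_v1_tr_00621, embryo 110 at 30-39 h had 0.674 CPM, the level of 1 count in that embryo, where the other 8 had none. Embryo 28 at 49 h had 694 CPM where the others of 40-49 h had 0 to 203 CPM. Embryo 38 at 59 h had 12962 CPM where the others of 50-59 h had 901 to 7095 CPM. Embryo 50 at 71 h had 31827 CPM where the others of 70-79 h had 0 to 14407 CPM. The last 3 stand at the edge of their windows nearest to the peak at 69 h.

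For HD_v1_tr_05823, embryo 48 at 69 h had 2609 CPM where the others of 60-69 h had 2.53 to 10.8 CPM, and embryo 64 at 85 h had 105 CPM where the others of 80-89 h had 1.42 to 17.5 CPM. For HD_v1_tr_12231, embryo 17 at 80 h had 209 CPM where the others of 80-89 h had 0 to 38.6 CPM.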

How the results depend on the processing

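Of 171 values under alternatives, 143 kept their direction and their side of the threshold, or, for a count, stayed within 1.5 times. The number of members was 88 with window medians in place of means (63 shared with the 185), 299 with a 2-fold limit and 534 with no minimum at 0-9 h (185 shared in each). It was 202 with TMM-scaled CPM (169 shared), 134 with no embryo left out (94 shared), 153 with both ends of the course taken from embryos 26-126 (128 shared), and 190 to 202 without 1 of the 4 embryos at 60-69 h. Members called at 70-79 h against 60-69 h numbered 44, but 17 within embryos 26-78 alone and 29 to 44 without 1 embryo of 60-69 h, the lowest without embryo 43. For left-out embryos, 17 members were called against 80-89 h and 32 against 0-39 h with no filter, and 1 against 0-39 h with RLE factors, with DESeq2, without HD_v1_tr_06538, at a depth minimum of 2% or without embryo 44, instead of 0. At 40-46 h against 20-29 h, 49 were called with no filter instead of 23. At 90-99 h, 17 were called with DESeq2 instead of 10, and 4 to 7 without 1 of embryos 22 to 25. The cause of these changes was not tested, except that no filter means more transcripts tested. Of 108 values for named transcripts, 12 lost their call and none changed sign, all in the 90-99 h comparison. No paired analysis was possible because each sample is 1 embryo and replicate numbers only name samples in order. Depth limits the early level: at 0-9 h, 3 counts over the group are 0.498 CPM in embryos 79-126 and 0.120 CPM in embryos 1-25.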
